A study of Rattus norvegicus with 46 samples.

Results

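The comparison described here is experiment C of a rat study of chlorpyrifos, at a dose of 10 mg/kg against vehicle. Chlorpyrifos is an organophosphate insecticide. Its members were chosen by array title. They are the 4 arrays of animals given 10 mg/kg (animals 1 to 4) and the 3 arrays of animals given vehicle, a dose of 0 mg/kg (animals 1 to 3), so 7 of the 46 arrays in the series. All were male F344 rats aged 11 to 12 weeks that received a single dose and were killed 96 hours later. About 30 mg of the frontal lobe of each brain gave the total RNA for 1 Affymetrix array. The labels give neither the route of dosing nor the composition of the vehicle. Arrays of 10 mg/kg animals 2 and 3 and of vehicle animal 1 are labelled 1st repeat, and the labels do not say what was repeated.

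Chlorpyrifos is converted in the body to its oxon, which blocks acetylcholinesterase, the enzyme that ends the action of the transmitter acetylcholine at synapses. Other serine hydrolases bind the oxon as well, and paraoxonases and carboxylesterases break it down or trap it. A block of frontal brain holds cortex, the myelinated fibres of the white matter beneath it and, depending on where the cut falls, striatum. Each of these has marker genes of its own.

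Signal was about as alike between the groups as within them, while RNA quality set 1 dosed array apart. Among the 10 mg/kg arrays the pairwise correlation of log2 signal lay between 0.953 and 0.967, among the vehicle arrays between 0.960 and 0.966, and between the groups between 0.951 and 0.975. The 3'/5' signal ratio of beta-actin goes up when RNA is degraded. It was 1.83 in 10 mg/kg animal 4, while the other 3 animals at 10 mg/kg had 1.34 to 1.40 and the vehicle animals 1.39 to 1.44. The same ratio of GAPDH was also highest in that animal, at 1.31. It was 1.12 to 1.21 in the other dosed animals and 1.16 to 1.23 in the vehicle animals. Slc17a7, the vesicular glutamate transporter of cortical neurons, was at a high level on every array, at 12.25 to 12.76 in 10 mg/kg animals and 11.89 to 12.54 in vehicle animals on the log2 scale of normalised intensity used throughout. Fewer cells of a type and less RNA per cell cannot be told apart in such tissue pieces.

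No probe set passed the test. Of 11106 probe sets tested with limma, 0 (0%) had a Benjamini-Hochberg adjusted p under 0.05 for 10 mg/kg minus vehicle, and the smallest adjusted p was 0.999. Without adjustment 479 probe sets (4.31%) had a p under 0.05, 245 of them higher (2.21%) and 234 lower (2.11%). All 4 arrays at 10 mg/kg lay above all 3 vehicle arrays in 329 probe sets (2.96%) and below them in 332 (2.99%). The median size of a difference was 0.11 on the log2 scale, with a median standard error of 0.17. Only 12 probe sets were more than 1 log2 unit higher and 22 more than 1 lower. An exact permutation test of 4 animals against 3 has 35 arrangements and cannot give a two-sided p under 0.0571, so the values below are descriptions of these 7 animals. Leaving out vehicle animal 1 left 237 probe sets with an unadjusted p under 0.05.

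Genes of oligodendrocytes, the cells that wrap axons in myelin, were lower as a group in the dosed animals. Of the 13 marker genes measured, all 13 were lower at 10 mg/kg, against 50.0% of the 8003 genes measured with 1 probe set each. Their median difference was -0.42, beside -0.00029 for all genes. Of these 13, 7 had an unadjusted p under 0.05 in the lower direction (2.15% of all genes), and in 6 all 4 arrays at 10 mg/kg lay below all 3 vehicle arrays (3.01% of all genes). No member had an adjusted p under 0.05.

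Mog, which encodes a glycoprotein on the outermost surface of the myelin sheath, had 9.78, 9.85, 9.85 and 9.89 in 10 mg/kg animals 1 to 4, against 10.69, 10.13 and 11.03 in vehicle animals 1 to 3. The 4 animals at 10 mg/kg lay within a narrow band, and every vehicle animal was above it. The difference was -0.77 ± 0.26 (SE), with an unadjusted p of 0.0104. Cldn11, the claudin that seals the layers of central myelin, had 11.64, 11.66, 11.77 and 11.60 at 10 mg/kg, against 11.86 in vehicle animal 2 and 12.33 and 12.45 in vehicle animals 1 and 3. It differed by -0.54 ± 0.15 (unadjusted p = 0.00331). The groups did not overlap, but vehicle animal 2 was close to the dosed animals.

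Mobp, a basic protein of compact central myelin, had 12.46, 12.28, 12.40 and 12.41 at 10 mg/kg, against 12.96, 12.49 and 12.96 in vehicle animals. Its difference was -0.42 ± 0.17 (unadjusted p = 0.0273), and the 2 further probe sets of the gene differed by -0.82 and -0.29. Again vehicle animal 2 stood nearest to the dosed group. Mal, a raft protein of myelin membranes, differed by -0.41 ± 0.16, and here vehicle animal 2, at 10.69, lay inside the range of 10.64 to 10.79 at 10 mg/kg.

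Members outside the naming rule, given here because they complete the list, were of the same sign. Ugt8, which makes galactosylceramide, the main glycolipid of myelin, had the largest difference, -0.92 ± 0.40. It had 8.99 to 9.32 at 10 mg/kg and 9.35 to 10.57 in vehicle animals. Olig1, a transcription factor of the oligodendrocyte lineage, differed by -0.50 ± 0.23 and did not overlap between the groups. Aspa, which breaks down N-acetylaspartate in oligodendrocytes, differed by -0.28 ± 0.14 and did not overlap either. Cnp, an enzyme of non-compact myelin, differed by -0.52 ± 0.24, and Mag, the adhesion molecule facing the axon, by -0.46 ± 0.24, both with vehicle animal 2 inside the dosed range.

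Mbp, the major basic protein of myelin, had the smallest difference of the list, -0.17 ± 0.13, with 13.40 to 13.79 at 10 mg/kg against 13.67 to 13.91 in vehicle animals, and a further probe set gave -0.47 ± 0.56. The lineage regulator Sox10 differed by -0.26 ± 0.22, Pdgfra, the growth factor receptor of oligodendrocyte precursors, by -0.28 ± 0.21 and Qdpr, a pterin reductase abundant in oligodendrocytes, by -0.28 ± 0.24. For these 3 genes the groups overlapped.

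**Figure D1:**
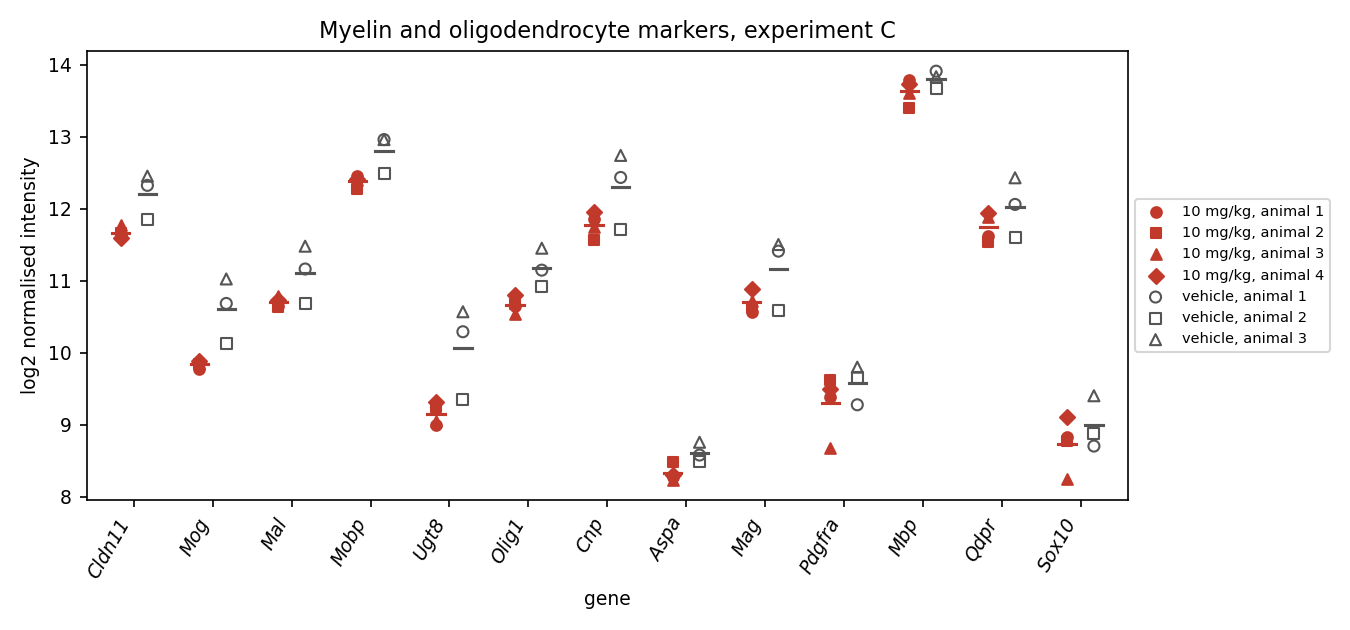
The plot gives the log2 normalised intensity of each of the 13 measured oligodendrocyte and myelin markers in the 4 animals at 10 mg/kg (filled red) and the 3 vehicle animals (open grey), with short lines at the group means and genes ordered by unadjusted p. In Cldn11, Mog and Mobp all 4 red points lie below all 3 grey ones, and vehicle animal 2 (open square) is the lowest grey point.

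The mean level of the myelin list was 10.66, 10.64, 10.58 and 10.78 in 10 mg/kg animals 1 to 4, against 11.15, 10.77 and 11.42 in vehicle animals 1 to 3. Vehicle animals 1 and 3 were high, and vehicle animal 2 lay within the range of the dosed animals. The 7 vehicle arrays of experiments A and B ranged from 10.43 to 11.04 for the same list. The dosed animals lay inside that range, and vehicle animals 1 and 3 of experiment C lay above it. The experiment B arrays are titled vehicle, but a second description line on them names a dose, and the title was followed. The 3 vehicle arrays of experiment A alone ranged from 10.47 to 10.83, and the dosed animals lay inside that range too. Within the arrays labelled 1st repeat (10 mg/kg animals 2 and 3 against vehicle animal 1) the list's median difference was -0.54, and without those arrays it was -0.32. Leaving out single animals gave medians between -0.62 and -0.29.

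The regulatory windows of list members are shown because 13 of 13 genes were lower together. They are given only for Cldn11 and Mobp, chosen as examples from the members with a window in the RefSeq promoter table (build GRCr8). Other members with a window, such as Mal and Ugt8, are not shown. Each window runs 5′ to 3′ along the gene's strand from 250 bases before the start to 50 bases after it. Capitals mark 2 motifs searched on both strands: GGGCGG, the GC box that Sp1-type factors bind, and ACAAAG (written CTTTGT on the other strand), a core that SOX-type factors such as Sox10 bind. The Cldn11 window is at chr2:114149490-114149789 on the minus strand, and the Mobp window at chr8:128746982-128747281 on the plus strand.
Cldn11: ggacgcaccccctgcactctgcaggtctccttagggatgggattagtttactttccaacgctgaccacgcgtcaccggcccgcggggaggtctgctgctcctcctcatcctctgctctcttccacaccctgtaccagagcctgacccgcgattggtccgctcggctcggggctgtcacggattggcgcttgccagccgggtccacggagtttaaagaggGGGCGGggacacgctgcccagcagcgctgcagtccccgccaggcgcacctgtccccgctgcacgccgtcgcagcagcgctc
Mobp: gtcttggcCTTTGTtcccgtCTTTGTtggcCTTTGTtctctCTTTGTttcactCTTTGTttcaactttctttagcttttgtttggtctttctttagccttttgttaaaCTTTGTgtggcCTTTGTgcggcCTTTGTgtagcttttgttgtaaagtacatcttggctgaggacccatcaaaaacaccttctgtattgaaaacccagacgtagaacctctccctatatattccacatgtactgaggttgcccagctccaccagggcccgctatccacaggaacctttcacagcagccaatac
The Cldn11 window holds 1 copy of GGGCGG and 0 of ACAAAG, whereas the Mobp window holds 8 copies of ACAAAG, all as CTTTGT, and 0 of GGGCGG. At least 1 copy of ACAAAG is found in 18.3% of the 27457 promoter windows in the table, and 2 windows hold 8 or more. Of the 10 myelin list genes with a window, 3 hold ACAAAG (Cnp, Mag and Mobp) and 6 hold GGGCGG, which is present in 34.9% of all windows. These matches are descriptions of the letters, not sites or causes.

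Of all genes, those with the smallest p were led by a regulator of the same cell type. Myrf, the transcription factor that switches on myelin genes in maturing oligodendrocytes, had 8.44, 9.04, 8.83 and 8.54 at 10 mg/kg, against 9.53, 9.56 and 9.90 in vehicle animals. The difference was -0.95 ± 0.18, a level 0.516 times that in vehicle, with an unadjusted p of 9.7e-05 and an adjusted p of 0.999 in limma. Here vehicle animal 2 stood with the other vehicle animals, unlike in Mobp and Mal.

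Nfasc, neurofascin, is a cell adhesion molecule found at and beside the node of Ranvier. It had 9.74, 9.74, 9.90 and 9.72 at 10 mg/kg, against 10.39, 10.06 and 10.33 in vehicle animals, a difference of -0.48 ± 0.11 (unadjusted p = 0.000496). The 2 further Nfasc probe sets differed by -0.41 ± 0.31 and -0.24 ± 0.23. Fah, which completes tyrosine breakdown, differed by -0.47 ± 0.11, and Mink1, a kinase upstream of stress-activated MAP kinases, by -0.45 ± 0.11. Sgk3, a kinase related to Akt, had 8.05 to 8.19 at 10 mg/kg against 8.65 to 9.37 in vehicle animals (-0.94 ± 0.23).

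Of the 10 genes with the smallest p, 6 were lower and 4 higher. Mybpc3, a myosin-binding protein known from heart muscle, differed by -1.09 ± 0.27. Its levels of 6.05 to 6.79 at 10 mg/kg lie under 6.86, the mean level below which dim probe sets were left out of the tests. The higher ones were Fam81a, at 0.77 ± 0.19, Cyp27a1, the mitochondrial sterol 27-hydroxylase, at 0.76 ± 0.19, Rbpms2, an RNA-binding protein, at 0.71 ± 0.18, and Slc25a18, a mitochondrial glutamate carrier, at 0.58 ± 0.15. In each of these 4 genes all dosed animals lay above all vehicle animals, for Fam81a by a margin as small as 10.33 in dosed animal 2 against 10.32 in vehicle animal 2.

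Among genes whose groups did not overlap, the largest differences of means in the higher direction were in genes of varied function. Lrg1, a secreted glycoprotein of inflamed vessels, had 8.83 to 9.42 at 10 mg/kg against 7.45 to 8.80 in vehicle animals (1.23 ± 0.49). Msln, mesothelin, a surface protein of mesothelium, differed by 1.05 ± 0.40, Cyp11b1, the steroid 11-beta-hydroxylase, by 0.99 ± 0.30, Alox15, a lipoxygenase, by 0.94 ± 0.37 and Slpi, a secreted protease inhibitor, by 0.90 ± 0.36. For Msln, vehicle animal 3 was at 5.84, against 7.22 and 7.67 in the other vehicle animals, and without it the difference was 0.51. For Alox15, dosed animal 2 was at 8.90, against 6.94 to 7.32 in the other dosed animals, and without it the difference was 0.51. Grm2, a presynaptic glutamate receptor that lowers release, had 9.65, 9.16, 9.42 and 8.88 at 10 mg/kg, against 7.86, 8.84 and 8.41 in vehicle animals (0.91 ± 0.27).

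In the lower direction Htr2c, a serotonin receptor abundant in choroid plexus and also found in striatum and cortex, had 8.55 to 10.44 at 10 mg/kg against 10.60 to 10.86 in vehicle animals (-1.23 ± 0.55). A further probe set of Htr2c differed by -0.68 ± 0.26. Il23a, a cytokine subunit, differed by -1.23 ± 0.50, with 4.59 in dosed animal 3 and 6.65 to 7.24 in the other 3 animals at 10 mg/kg. Without dosed animal 3 it was -0.63. Ccdc88c, a regulator of Wnt signalling, differed by -1.07 ± 0.32.

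Markers of striatal projection neurons, the GABAergic output cells of the striatum, showed a wider but less even difference. Of 21 measured, 20 were lower at 10 mg/kg, with a median of -0.89, and 9 had an unadjusted p under 0.05 (2.15% of all genes in that direction). Yet in only 1 of 21, Foxp1, did the groups not overlap (3.01% of all genes). None had an adjusted p under 0.05 in limma.

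Ppp1r1b, also called DARPP-32, the phosphatase inhibitor that relays dopamine signals, had 10.44, 10.61, 10.76 and 11.81 in 10 mg/kg animals 1 to 4, against 12.79, 11.48 and 12.13 in vehicle animals 1 to 3. Dosed animal 4 lay above vehicle animal 2, and vehicle animal 1 was the highest of all. The difference was -1.23 ± 0.42 (unadjusted p = 0.0108). Drd1, the dopamine receptor of direct-pathway neurons, had 8.43, 8.98, 9.32 and 9.82 at 10 mg/kg, against 11.29, 9.66 and 10.32 in vehicle animals (-1.29 ± 0.51). Drd2, its counterpart in indirect-pathway neurons, had 8.44, 8.72, 8.45 and 9.96 at 10 mg/kg, against 10.79, 9.40 and 9.72 in vehicle animals (-1.08 ± 0.45). The same order returned in both receptors, with dosed animal 4 high and vehicle animal 1 highest.

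Signalling genes of these neurons had negative differences too. Adcy5, the striatal adenylyl cyclase, differed by -0.94 ± 0.37, Rasgrp2, an exchange factor for Rap, by -1.33 ± 0.50, Rgs9, which ends G protein signals, by -0.96 ± 0.45, Ptpn5, a striatum-enriched tyrosine phosphatase, by -0.61 ± 0.33, Pde10a by -0.53 ± 0.33 and Pde1b by -0.76 ± 0.81. A further probe set differed by -0.36 ± 0.29 for Rasgrp2 and by -0.23 ± 0.30 for Pde10a. Adora2a, the adenosine receptor of indirect-pathway neurons, had the largest difference of the list, -1.37 ± 0.67. The nuclear receptor Rarb differed by -0.89 ± 0.36 and the transcription factor Foxp1 by -0.63 ± 0.28.

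The neuropeptide precursors were among the more variable members. Penk, which encodes the enkephalins, had 11.06, 11.74, 11.47 and 12.86 at 10 mg/kg, against 13.36, 12.01 and 12.62 in vehicle animals (-0.88 ± 0.47). Tac1, the precursor of substance P, differed by -1.11 ± 0.77 and Pdyn, the dynorphin precursor, by -1.02 ± 0.52. Rasd2, Scn4b and Gng7 differed by -0.70 ± 0.38, -0.90 ± 0.44 and -0.52 ± 0.53. Chrm4, the muscarinic receptor of direct-pathway neurons, differed by -0.14 ± 0.27. Arpp21, a cAMP-regulated phosphoprotein, gave -0.68 ± 0.24, with further probe sets at -0.67 and 0.39. Strn, striatin, was the only member with a higher mean at 10 mg/kg (0.22 ± 0.25), and its further probe set gave -0.82 ± 0.40.

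The mean level of the striatal list was 8.98, 9.20, 9.32 and 10.04 in 10 mg/kg animals 1 to 4, against 10.95, 9.59 and 10.09 in vehicle animals 1 to 3. Animals of 1 group therefore differed among themselves by about as much as the groups did. The 7 vehicle arrays of experiments A and B spanned 8.51 to 10.49, which holds every array here except vehicle animal 1. Without vehicle animal 1 the list's median difference was -0.52. Within the arrays labelled 1st repeat it was -1.79, and without them -0.36.

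**Figure D2:**
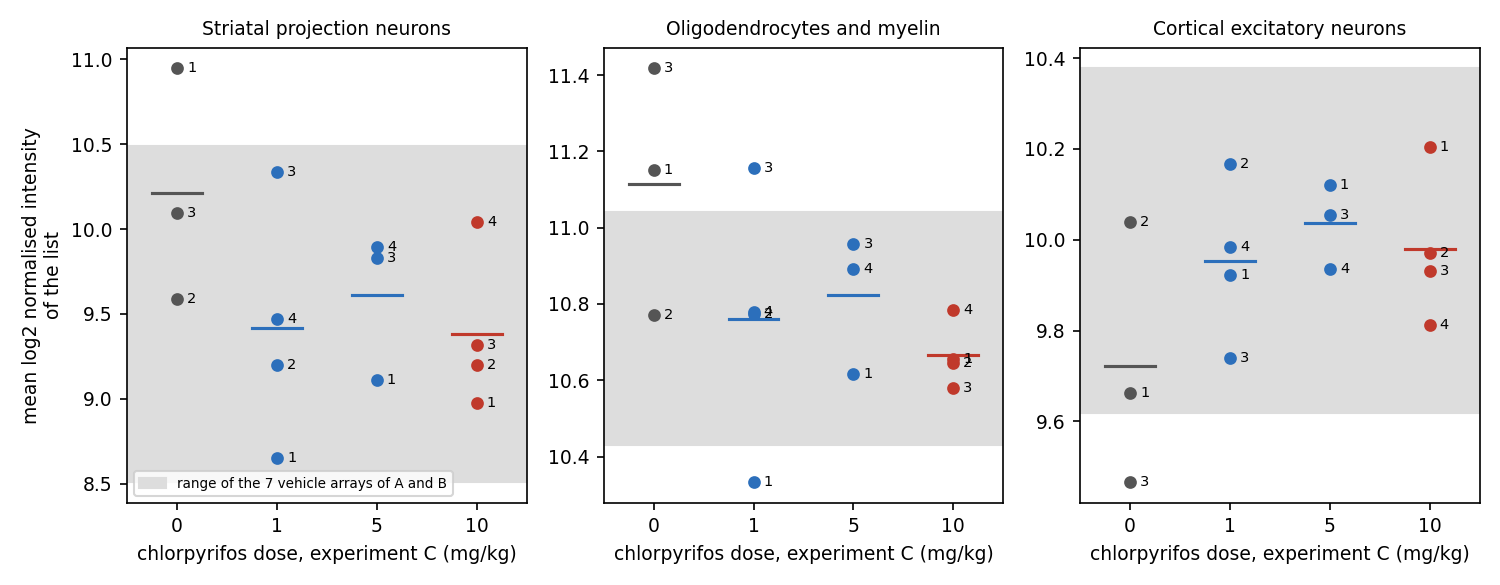
Each panel plots the mean log2 normalised intensity of 1 marker list for every array of experiment C by chlorpyrifos dose, with the animal number beside the point, a line at the group mean, and in grey the range of the 7 vehicle arrays of experiments A and B. The 10 mg/kg points lie inside the grey range in all 3 panels. Vehicle animal 1 lies above it for striatal genes, vehicle animals 1 and 3 lie above it for myelin genes, and vehicle animal 3 lies below it for cortical genes. For cortical genes the lower edge of the range comes from experiment B, and the vehicle arrays of experiment A alone spanned 10.04 to 10.38.

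Cortical excitatory neuron markers stood on the other side. Of 15 measured, 13 were higher at 10 mg/kg, with a median of 0.26, and 3 had an unadjusted p under 0.05 (2.35% of all genes in that direction). In 2 of 15 all dosed animals lay above all vehicle animals (2.96% of all genes). Cux2, a transcription factor of upper-layer neurons, had 8.53, 8.30, 8.88 and 8.73 at 10 mg/kg, against 7.85, 8.33 and 7.72 in vehicle animals (0.64 ± 0.17, unadjusted p = 0.00224). Vehicle animal 2 overlapped with the dosed animals, as it did in several myelin genes. In the list of synaptic vesicle genes, Stx1a, a SNARE protein of transmitter release, differed by 0.63 ± 0.21, and its further probe set by 0.47 ± 0.49.

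Cck, the cholecystokinin precursor, had 12.75, 12.70, 12.64 and 12.64 at 10 mg/kg, against 11.94, 12.63 and 12.21 in vehicle animals (0.42 ± 0.18). Nrgn, neurogranin, a calmodulin-binding protein of dendritic spines, had 12.55 to 12.93 at 10 mg/kg against 12.42 to 12.50 in vehicle animals (0.31 ± 0.16). Slc17a7 differed by 0.26 ± 0.19 with overlapping groups. Nr4a2, a nuclear receptor of deep-layer and claustral neurons, was lower by -0.57 ± 0.35. The list's mean level was 10.20, 9.97, 9.93 and 9.81 in 10 mg/kg animals, against 9.66, 10.04 and 9.47 in vehicle animals. The median difference of the list was 0.17 without dosed animal 1, 0.39 without dosed animal 4 and 0.46 without vehicle animal 2. Within the arrays labelled 1st repeat it was 0.39, and without them 0.27.

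Synaptic and neuropeptide genes included further higher values. Of 24 genes of synaptic vesicles and release, 19 were higher (50.0% of all genes), with a median of 0.13. Of the 24, 2 had an unadjusted p under 0.05 in that direction (2.35% of all genes). The list's mean level was 11.00, 10.86, 10.94 and 10.51 in 10 mg/kg animals 1 to 4, against 10.72, 10.84 and 10.61 in vehicle animals. The groups overlapped, and dosed animal 4 was the lowest of all these animals. Syn1, synapsin, had 12.48, 12.13, 12.28 and 12.28 at 10 mg/kg, against 11.81, 12.17 and 11.84 in vehicle animals (0.35 ± 0.13). Vip, the peptide of a class of cortical interneurons, had 9.65, 9.57, 9.71 and 9.52 at 10 mg/kg, against 8.42, 9.43 and 8.93 in vehicle animals (0.69 ± 0.23), without overlap. Adcyap1, the precursor of PACAP and a member of the hypothalamic neuropeptide list, differed by 0.73 ± 0.29. Of 8 measured genes in that list 3 were higher and 5 lower, with a median of -0.20. Of 16 interneuron markers as a whole 9 were higher and 7 lower, with a median of 0.02. The list's median for vesicle genes was 0.26 within the arrays labelled 1st repeat and 0.07 without them.

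**Figure D3:**
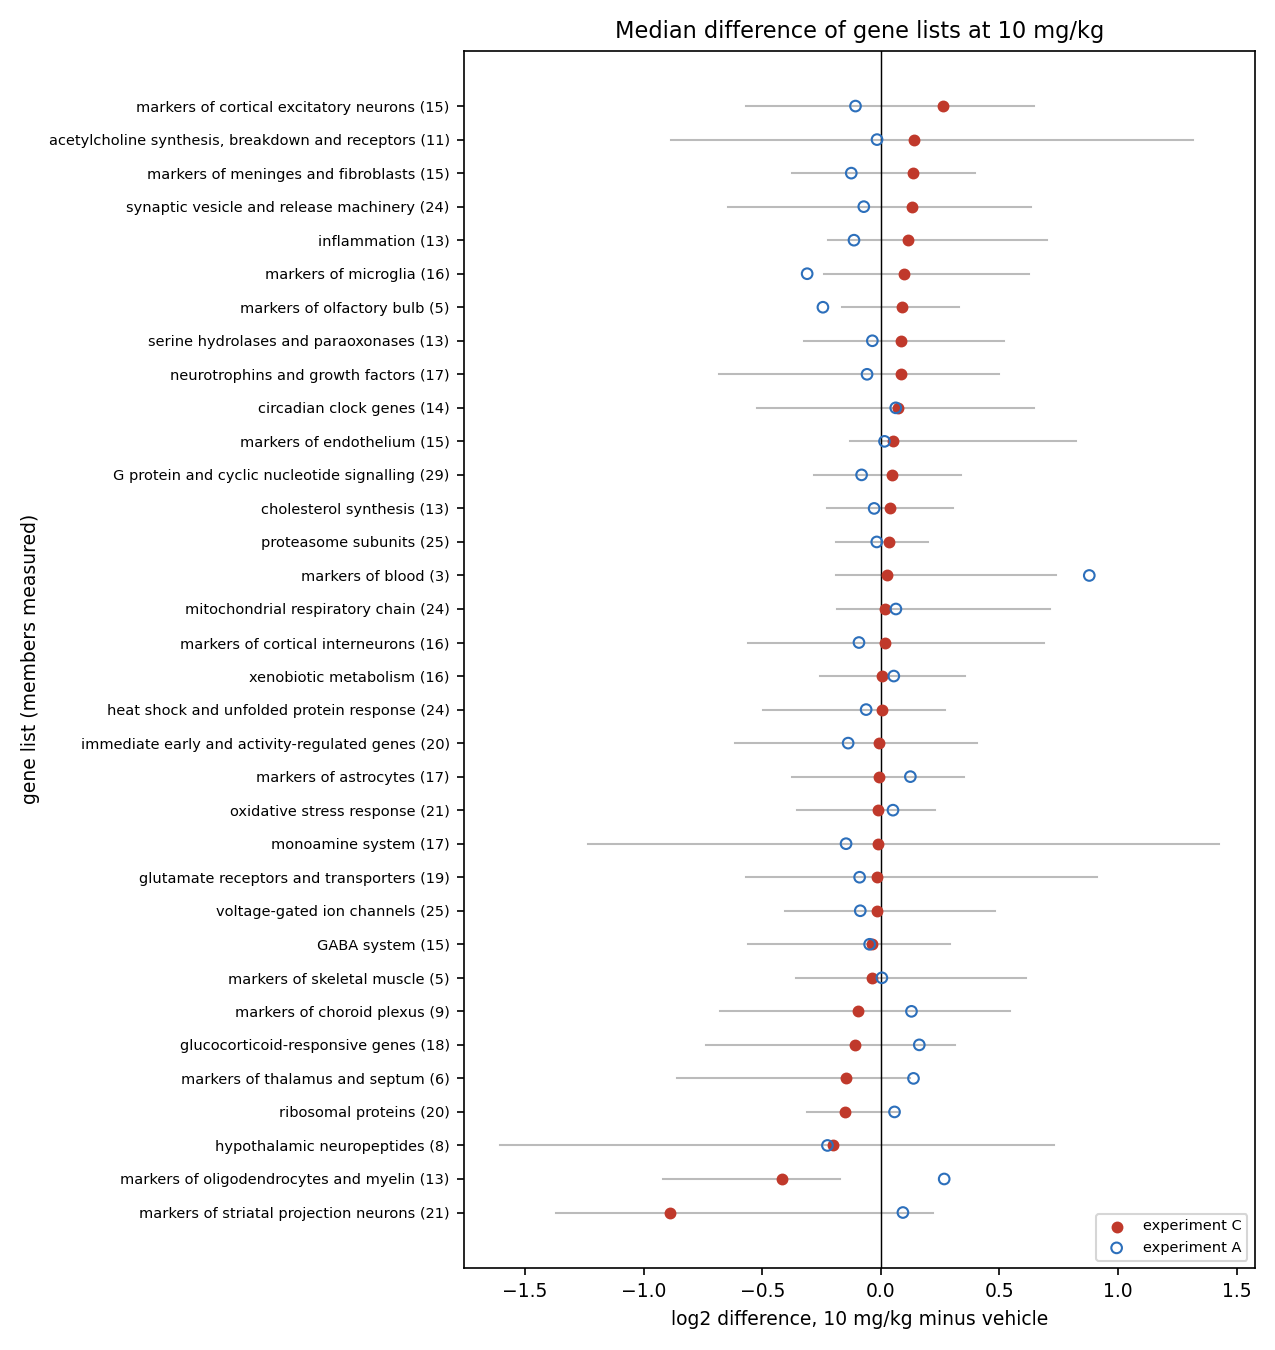
The plot shows, for each of the 34 gene lists, the median log2 difference of its measured members between 10 mg/kg and vehicle in experiment C (filled red) and experiment A (open blue), with a grey line for the range over members in experiment C and the number of members in brackets. Most medians lie near 0, whereas the striatal list (-0.89) and the myelin list (-0.42) lie to the left in experiment C and at 0.09 and 0.27 in experiment A, and the cortical excitatory list (0.26) lies farthest to the right among the experiment C medians.

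Genes of the cholinergic synapse, the site where the oxon acts, showed no common difference among those bright enough to test. Of 23 genes in the list 21 had a probe set and 11 were bright enough to test; 7 were higher and 4 lower, with a median of 0.14, and 1 of the 11 had an unadjusted p under 0.05, in the lower direction (2.15% of all genes). Without the arrays labelled 1st repeat the median was -0.0097. Ache, which encodes acetylcholinesterase, has no probe set of its own in the annotation used. Chat, the enzyme that makes acetylcholine, Slc18a3, which loads it into vesicles, and the nicotinic subunit gene Chrnb2 were too dim to test. Their means at 10 mg/kg against vehicle were 5.78 against 7.04 for Chat, 3.85 against 5.13 for Slc18a3 and 5.46 against 5.91 for Chrnb2. All were lower at 10 mg/kg, but these values lie near or under the filter level of 6.86, with the floor at 3.40. They were not tested. Other members of the list too dim to test are not given, so no direction of the list follows.

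Slc5a7, the choline transporter that feeds acetylcholine synthesis, had 6.58, 6.56, 6.68 and 6.48 at 10 mg/kg, against 8.0, 6.94 and 7.45 in vehicle animals. The groups did not overlap, and the difference was -0.89 ± 0.31 (unadjusted p = 0.013). All 4 dosed values lie under the filter level of 6.86, so the size of the gap is uncertain. In the frontal block cholinergic cell bodies lie mainly in striatum and basal forebrain, and vehicle animal 1, the highest for Slc5a7, was also the highest for the striatal list. Their part in the Slc5a7 result was not tested.

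Bche, butyrylcholinesterase, a further target of the oxon, had 7.21, 6.80, 7.22 and 6.80 at 10 mg/kg, against 7.22, 6.84 and 7.21 in vehicle animals, a difference of -0.08 ± 0.18. The muscarinic receptor genes were uneven. Chrm1 had 7.32, 7.42, 7.77 and 6.65 at 10 mg/kg, against 7.12, 6.32 and 4.49 in vehicle animals, and its difference of 1.32 ± 0.77 rests on dim values. Chrm3 differed by 0.21 ± 0.18 and Chrm2 by 0.15 ± 0.21. The nicotinic subunit genes Chrna7 and Chrna4 differed by 0.14 ± 0.17 and -0.04 ± 0.16.

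**Figure D4:**
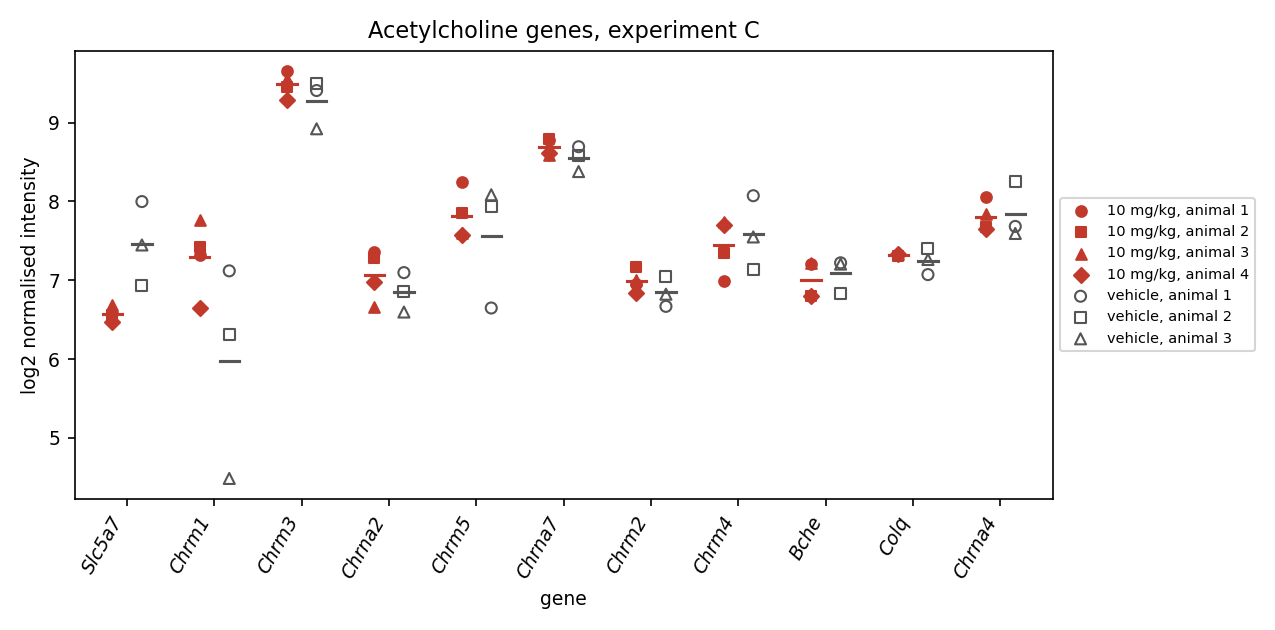
The plot gives the log2 normalised intensity of the 11 measured acetylcholine genes in the 4 animals at 10 mg/kg (filled red) and the 3 vehicle animals (open grey), with lines at the group means and genes ordered by unadjusted p. Only Slc5a7 separates the groups, with all 4 red points under 6.86, and Chrm1 spreads from 4.49 to 7.12 among vehicle animals.

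Among serine hydrolases and paraoxonases, 10 of 13 measured genes were higher and 3 lower, with a median of 0.09 that was -0.0019 without vehicle animal 1. Pon2, the paraoxonase made within brain cells, had 9.98, 9.85, 9.87 and 9.88 at 10 mg/kg, against 10.29, 10.10 and 10.28 in vehicle animals. It did not overlap between the groups and differed by -0.32 ± 0.09 (unadjusted p = 0.00288). Dpp4, a serine peptidase, had 7.47 to 8.22 at 10 mg/kg against 7.06 to 7.44 in vehicle animals (0.52 ± 0.23). Mgll, which breaks down the endocannabinoid 2-AG, differed by 0.37 ± 0.20, with further probe sets at 0.13 to 0.26, and Nceh1, a cholesteryl ester hydrolase, by 0.18 ± 0.11.

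Ribosomal protein genes had small differences in 1 direction. Of 20 measured, 19 were lower (50.0% of all genes), with a median of -0.15. In the lower direction 1 had an unadjusted p under 0.05 (2.15% of all genes), and in 2 the groups did not overlap (3.01% of all genes). Rps23 had 12.85, 13.17, 12.74 and 13.18 at 10 mg/kg, against 13.31, 13.27 and 13.30 in vehicle animals (-0.31 ± 0.14). Rpl11 differed by -0.21 ± 0.10, Rpl6 by -0.15 ± 0.07 and Rpl18 by -0.21 ± 0.11. The list's mean level was 11.77, 12.01, 11.66 and 11.94 in 10 mg/kg animals 1 to 4, against 12.00, 12.01 and 11.97 in vehicle animals. Dosed animals 1 and 3 were low, and dosed animals 2 and 4 were at about the vehicle level. Without dosed animal 3 the list's median was -0.09.

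G protein signalling genes were split, 16 of 29 higher and 13 lower, with a median of 0.05. Rgs4, a brake on Gq and Gi signals in cortex, differed by 0.34 ± 0.13, Adcy2, an adenylyl cyclase, by 0.28 ± 0.12 and Prkar1b, a regulatory subunit of protein kinase A, by 0.21 ± 0.10. Of 17 growth factor genes 10 were higher and 7 lower, with a median of 0.09. They included Fgf9, a glial and neuronal growth factor, at 0.50 ± 0.16, and Gfra2, the receptor of neurturin, at 0.50 ± 0.16. The clock-related repressors went opposite ways, Bhlhe40 at 0.64 ± 0.24 and Bhlhe41 at -0.52 ± 0.17. Vwf, von Willebrand factor of endothelium, had 8.39 to 8.92 at 10 mg/kg against 7.69 to 8.31 in vehicle animals (0.82 ± 0.23), while the 15 endothelial genes together had a median of 0.05. Cox5a, a subunit of cytochrome c oxidase, differed by 0.71 ± 0.26. It was the highest of 24 respiratory chain genes, of which 14 were higher and 10 lower, with a median of 0.02.

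Activity-regulated genes differed little, with a median of -0.01 over 20 genes, 9 higher and 11 lower. Arc, which acts in synaptic scaling, differed by -0.15 ± 0.14, Egr1 by 0.06 ± 0.11 and Fos by -0.62 ± 0.47. Fos had 6.71, 8.35, 6.64 and 8.46 at 10 mg/kg, against 8.15, 8.07 and 8.25 in vehicle animals, so dosed animals 1 and 3 were low. Gfap, the filament protein of astrocytes, differed by -0.21 ± 0.26, and the 17 astrocyte genes had a median of -0.01. Cdk7, a kinase of the transcription machinery, had 7.56 to 7.70 at 10 mg/kg against 7.85 to 8.01 in vehicle animals (-0.28 ± 0.14).

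Markers of neighbouring structures differed between animals of the same group. Oxt and Avp, the hypothalamic hormones oxytocin and vasopressin, were at 5.56 to 7.67 and 6.68 to 7.58 at 10 mg/kg. Among vehicle animals they were at 11.72 and 11.46 in animal 3, and at 5.87 and 6.98 in animal 1 and 6.20 and 6.81 in animal 2. Only vehicle animal 3 was high. Pmch, the precursor of melanin-concentrating hormone, was also highest there, at 8.77, against 7.16 to 7.79 at 10 mg/kg. Ttr, transthyretin of the choroid plexus, had 11.37, 7.70, 8.0 and 13.42 at 10 mg/kg, against 7.36, 7.47 and 13.91 in vehicle animals. Vehicle animal 3, with the highest myelin list level of the 7 animals, also had the highest hypothalamic and choroid plexus signals. Without vehicle animal 3 the myelin list's median was -0.29.

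The lower doses of experiment C share the vehicle arrays of this comparison, so their values repeat whatever those 3 animals contribute. The myelin list's median against vehicle was -0.29, -0.25 and -0.42 at 1, 5 and 10 mg/kg. For striatal genes it was -0.82, -0.65 and -0.89 in the same order of doses, and for cortical excitatory genes 0.23, 0.35 and 0.26. Myrf differed from vehicle by -0.44, -0.54 and -0.95 at those doses, in that order. Mog differed by -0.74, -0.53 and -0.77. The array of animal 1 at 1 mg/kg stood apart, with a beta-actin 3'/5' ratio of 4.72. It is no member of this comparison but enters the estimate of spread, and without it 593 probe sets passed 0.05 unadjusted and 0 after adjustment.

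Experiment A gave the same dose to rats of the same strain, sex and age and has vehicle animals of its own, 5 dosed and 3 vehicle arrays being usable. For its 10 mg/kg difference, 44.7% of the 11106 probe sets had the same sign as in experiment C. Of the 479 probe sets with an unadjusted p under 0.05 in experiment C, 151 (31.5%) had the same sign in experiment A. With the same sign, 4 of the 479 (0.835%) also had an unadjusted p under 0.05 in experiment A. Of all probe sets 322 (2.90%) had such a p in experiment A, but in either direction, so these percentages are not like for like. The experiment A test came from the fit of all usable arrays, and the 479 from the fit of experiment C alone. The difference between the experiments, tested in limma as C minus A, gave 0 (0%) of 11106 probe sets with an adjusted p under 0.05 and 735 (6.62%) with an unadjusted one. Leaving out vehicle animal 2 of experiment C gave 2 calls, Gatm (adjusted p = 0.0441) and Reep3 (adjusted p = 0.0441).

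Myelin genes had opposite signs in the experiments. All 13 were higher at 10 mg/kg in experiment A, with a median of 0.27, where all 13 were lower in experiment C. For 9 of the 13 the C minus A difference had an unadjusted p under 0.05 (6.62% of all probe sets), none an adjusted one. Mog had a C minus A difference of -1.27, with an unadjusted p of 0.00274 and an adjusted p of 0.597. The myelin list level ranged from 10.75 to 11.07 in the 10 mg/kg animals and from 10.47 to 10.83 in the vehicle animals of experiment A. In experiment C the 7 animals ranged from 10.58 to 11.42, so the lowest vehicle animal of experiment A lay below them all. Striatal genes had a median of 0.09 in experiment A and cortical excitatory genes -0.11.

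The genes with the smallest p for C minus A were all lower in experiment C and higher in experiment A. Gatm, which makes the creatine precursor and is enriched in oligodendrocytes, had 9.84, 9.98, 10.03 and 10.01 at 10 mg/kg in experiment C, against 10.54, 10.14 and 10.62 in its vehicle animals. In experiment A it had 10.63 to 10.80 at 10 mg/kg, against 10.39 to 10.43 in vehicle animals. The groups did not overlap in either experiment, in opposite directions, as in 20 of the 8003 genes (0.250%), and the C minus A difference was -0.81 (unadjusted p = 5.78e-05, adjusted p = 0.554). Rnase4 differed by -0.55, Reep3, which shapes the endoplasmic reticulum, by -0.58, Cdhr2, a cadherin-related protein, by -0.73, Atp11a, a lipid flippase, by -1.21 and Plaat3, a phospholipase, by -0.54, with adjusted p-values between 0.554 and 0.595.

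**Figure D5:**
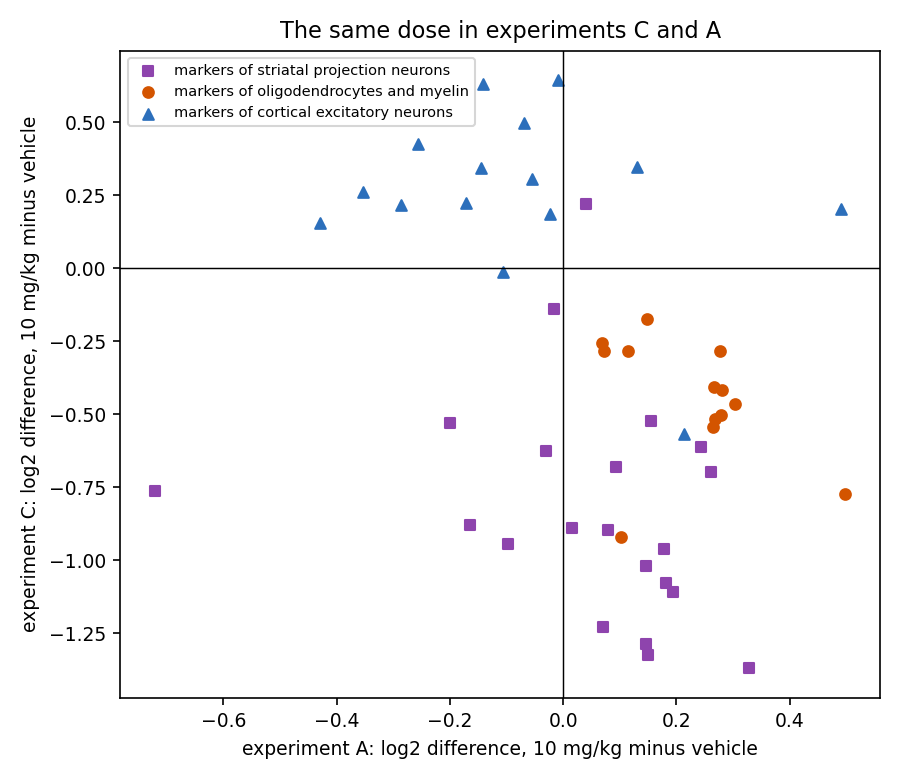
Each point is 1 gene of the striatal, myelin or cortical excitatory marker list, placed by its log2 difference between 10 mg/kg and vehicle in experiment A (horizontal) and in experiment C (vertical). All 13 myelin genes lie in the lower right, higher at 10 mg/kg in A and lower in C, and 20 of 21 striatal genes lie below 0 on the vertical axis.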

How the data were processed

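The deposited table holds linear signal intensity for 15923 probe sets on 46 arrays, as the authors left it. The sources used here do not name the summarisation software. On the 14 experiment C arrays used, the trimmed mean intensity was close to 500 on each, and precision is limited by how many arrays each group has. The probe sets of 7 arrays (3 of them in experiment C, none in this comparison) stand in another order than the rest (correlations with the others between -0.0068 and 0.0025), so 39 arrays were used.

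Each array was brought to the same median intensity, values under the 5th percentile (10.6) were raised to it, and the data were log2 transformed and quantile normalised. After 57 controls were dropped, probe sets under the 30th percentile of mean level (log2 6.86) were left out, which left 11106. For counts over genes, 1 probe set per gene was taken, that with the highest mean (8003 genes). Probe sets were named through the platform annotation and RefSeq gene tables: 12783 had 1 symbol, 312 several and 2771 none.

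The comparison was fitted with limma 3.58.1 in R 4.3.3 (trend, two-sided, Benjamini-Hochberg threshold 0.05) on the 14 arrays of experiment C, with 1 mean per dose. The difference C minus A was fitted on all 39. Figures were drawn with Python 3.11.15 and matplotlib 3.10.9. The script was tested on simulated data. Labels number the animals within each group, and same-numbered animals did not deviate together (correlations 0.02, 0.11 and 0.06), so the numbers were not taken as pairs.

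Genes were named by rule: up to 10 with the smallest p where none passed. The 6 largest differences of means without overlap in each direction followed. Up to 4 per gene list were taken by p. A set of cholinergic, striatal and dissection markers was added, and the 6 smallest p for C minus A. The comparison and the lists were chosen with earlier results of these data known. Alternatives covered scaling, floor, filter, prior, arrays in the fit, the 1st repeat label, the animal number and each animal left out.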

Additional observations from a re-analysis of the deposited data

Results flagged for a closer look

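The 4 animals at 10 mg/kg in experiment C were examined for an animal apart from the rest in 126 sets of values. In 3 of these sets an animal was picked out, where chance alone picks out about 1 in 20. Nfasc was 9.90 in 10 mg/kg animal 3, while the other 3 animals at 10 mg/kg lay at 9.72 to 9.74. Rgs9 was 10.28 in 10 mg/kg animal 4, against at most 9.48 in the other dosed animals, and this animal also had the highest striatal list level among dosed animals. The mean level of 17 monoamine genes was 8.11 in 10 mg/kg animal 3, below the next lowest dosed animal at 8.30, and equal to that of vehicle animal 1 at 8.11.

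Of 92 named genes examined, some were named for a lack of overlap in experiment C or for their C minus A difference. In 4 of the 92, every dosed animal lay beyond every vehicle animal in both experiments, in opposite directions. Over all 8003 genes 20 (0.250%) did so. Their C minus A differences did not pass the limma test. Gatm differed by -0.81 (adjusted p = 0.554) and Cdhr2 by -0.73 (adjusted p = 0.595), both lower at 10 mg/kg in experiment C. Cck differed by 0.68 (adjusted p = 0.736) and Bhlhe40, a clock-linked repressor, by 0.92 (adjusted p = 0.675), both higher at 10 mg/kg in experiment C. In experiment A, Cck had 12.18 to 12.38 at 10 mg/kg, against 12.43 to 12.60 in vehicle animals.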

How the results depend on the processing

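The count of probe sets called for 10 mg/kg minus vehicle was 0 in all 19 alternatives. The count at an unadjusted p under 0.05, 479 as reported, was 740 with all arrays in the fit, 295 without the arrays labelled 1st repeat, and 237 to 697 with single animals left out, lowest without vehicle animal 1. With the animal number as a replicate block it was 543, with 0 called, and 658 for C minus A, with 0 called; the block changed no call. The C minus A count of calls was 0 to 2 with single animals left out, and 2 only without vehicle animal 2 of experiment C. Medians of the myelin, striatal, cortical excitatory, ribosomal and vesicle lists kept their sign in every alternative. The striatal median was -1.79 within the arrays labelled 1st repeat, an alternative added after seeing the data. The acetylcholine median was -0.0097 without those arrays, and the serine hydrolase median was -0.0019 to 0.16 with single animals left out. The cause was not tested.

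Of 1995 values for 101 named genes, 23 changed sign, in 13 genes. Without the arrays labelled 1st repeat or single animals, the differences ranged from -0.241 to 0.0089 for Mbp, -0.357 to 0.0584 for Gfap, -0.799 to 0.011 for Gng7, -1.11 to 0.0859 for Pde1b, -0.0356 to 0.247 for Chrm2, -0.367 to 0.104 for Chrm4 (0.0059 without the labelled arrays) and -0.162 to 0.167 for Chrna4. For Egr1 they ranged from -0.0202 to 0.173, for Strn from -0.0343 to 0.601, for Ttr from -0.565 to 2.71, for Avp from -2.07 to 0.256 and for Oxt from -2.92 to 0.291, the last 2 reversing without vehicle animal 3. Within the labelled arrays, Chrna4 was 0.0772, Chrna7 -0.0030, Egr1 -0.0837, Oxt 0.743 and Strn -0.432. The limits are 7 arrays, dim probe sets near the floor, and vehicle animals that differ among themselves in myelin and striatal levels.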
